A study of Mus musculus with 32 samples.

Results

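Protease-activated receptors (PARs) and their vascular partners were followed through brain arteries of mice that lack Notch3 and of mice that carry a mutant Notch3 transgene. The genes were the 4 PAR genes F2r (PAR1), F2rl1 (PAR2), F2rl2 (PAR3) and F2rl3 (PAR4), together with Thbd, which encodes thrombomodulin, and Procr, which encodes the endothelial protein C receptor (EPCR). They are 6 of the 55357 genes in the read count table, chosen by matching Ensembl identifiers to these symbols, and all 6 were found. The family was selected because F2rl1 was higher in the transgenic mice, so every value of these genes in that contrast is a description and carries no p.

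The study sequenced poly(A) RNA from brain arteries dissected from 32 mice, in 4 groups of 8, to profile genes regulated by NOTCH3 in models of CADASIL, the inherited small vessel disease caused by NOTCH3 mutations. At 3 months of age, Notch3-/- mice, whose Notch3 gene is inactivated, were set against Notch3+/+ mice. At 12 months of age, TgNotch3R169C mice, which carry rat Notch3 with the Arg169Cys mutation on an artificial chromosome in addition to their normal mouse Notch3, were set against nontransgenic (WT) mice. All lines had been backcrossed onto C57BL/6, the transgene lies on the X chromosome and is overexpressed, and sex is not among the labels. The labels number the replicates, and each is a separate library.

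PARs are G protein-coupled receptors that carry their own ligand. A protease cuts the extracellular N terminus, and the new end, the tethered ligand, folds back and switches the receptor on. Thrombin cuts PAR1, PAR3 and PAR4, whereas PAR2 is cut by trypsin-like enzymes such as mast cell tryptase and by the tissue factor complex. Mouse PAR3 signals little by itself and helps thrombin to cut PAR4. Thrombomodulin binds thrombin on the endothelial surface and turns it toward protein C, which EPCR presents to it, and activated protein C on EPCR can cut PAR1 to a protective signal.

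The stretch of coding sequence that holds the tethered ligand is shown for each receptor because the ligand differs between the 4 receptors. Each line gives 60 coding bases, 5′ to 3′, from the GENCODE vM21 mouse transcripts. Capitals mark the 6 codons of the tethered ligand, and the cut that exposes this ligand falls just before them.
F2r: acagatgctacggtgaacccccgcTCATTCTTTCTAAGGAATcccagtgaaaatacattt
F2rl1: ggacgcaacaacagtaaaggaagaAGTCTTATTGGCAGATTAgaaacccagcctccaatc
F2rl2: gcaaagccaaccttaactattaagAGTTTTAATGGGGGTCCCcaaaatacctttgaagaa
F2rl3: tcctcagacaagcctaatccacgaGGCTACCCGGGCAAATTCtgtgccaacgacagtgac
The codon before the capitals encodes arginine in F2r, F2rl1 and F2rl3 and lysine in F2rl2. The ligand starts at codon 42 of 430 in F2r, codon 39 of 399 in F2rl1, codon 38 of 369 in F2rl2 and codon 60 of 396 in F2rl3. F2r, F2rl1 and F2rl2 lie on chromosome 13, where F2rl1 and F2r are neighbors on the minus strand. F2rl2 lies within Iqgap2, on the opposite strand to it, and the strand setting of the counting is not given in the sources used here, so reads of these 2 genes may not be separated. F2rl3 is on chromosome 8, and Thbd and Procr are on chromosome 2. No coordinates are given, because the annotation at hand is for GRCm38 and the counts are for mm39.

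Total counts ran from 20289487 to 54481934 per library. Notch3 followed the labels, at 83.5 ± 12.0 CPM (read counts scaled to the size of the library; SD, n = 8) in Notch3+/+ mice, 16.2 ± 1.81 in Notch3-/- mice, 181.8 ± 34.5 in TgNotch3R169C mice and 73.1 ± 8.18 in WT mice aged 12 months. Markers of arterial cells were abundant, with 8 smooth muscle markers summing to between 1134 and 4358 CPM and 8 endothelial markers to between 1067 and 1795 CPM per library. Markers of neural tissue were present too. Per library, 6 astrocyte markers summed to between 1943 and 3311 CPM and 5 oligodendrocyte markers to between 411 and 2032 CPM. The 6 neuron markers summed to between 125 and 895 CPM. A set of 7 libraries stood apart by 7 markers of choroid plexus, the epithelium that makes cerebrospinal fluid. These markers summed to between 8884 and 25654 CPM there and to between 226.1 and 654.6 CPM in the other 25 libraries. The 7 libraries were 1 of Notch3-/- (replicate 8), 2 of TgNotch3R169C (replicates 5 and 8) and 4 of WT mice (replicates 2, 4, 5 and 6). The fold changes of the 6 genes between TgNotch3R169C and WT mice are therefore given with and without them.

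Thrombomodulin RNA was the most abundant of the 6. Per kilobase of exon, Thbd averaged 250.3 CPM over 32 libraries, Procr 6.97, F2r 5.89, F2rl1 5.24, F2rl3 0.280 and F2rl2 0.155. Thbd was above Procr in 32 of 32 libraries, by a median ratio of 36.0. Procr, F2r and F2rl1 formed a close middle group in which neighbors changed places: Procr was above F2r in 24 of 32 libraries, and F2r was above F2rl1 in 24 of 32. F2rl1 was above F2rl3 in 32 of 32 libraries. F2rl3 was above F2rl2 in 20 of 32, and the mean difference between these 2 was smaller than the SD of F2rl3 over the libraries (0.297 CPM per kilobase).

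All of the levels that follow are CPM without division by length. F2r, the main thrombin receptor of vascular cells, had its lowest, median and highest level at 16.1, 20.1 and 25.6 in Notch3+/+ mice and at 18.1, 19.6 and 26.6 in Notch3-/- mice. At 12 months these were 11.3, 16.6 and 18.1 in WT mice and 16.2, 22.9 and 25.2 in TgNotch3R169C mice. The WT mice aged 12 months held the lowest levels of the 4 groups, and the 3 lowest of them, at 11.3, 12.4 and 14.0, were all libraries rich in choroid plexus markers.

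F2rl1 ran from 8.18 through a median of 15.1 to 19.5 in Notch3+/+ mice and from 10.4 through 13.3 to 21.4 in Notch3-/- mice. In WT mice aged 12 months it ran from 10.6 through 11.7 to 13.7, and in TgNotch3R169C mice from 13.9 through 15.7 to 19.1. The spread at 3 months was wide, with a coefficient of variation of 25.3% and 29.2%, against 8.83% in WT and 10.9% in TgNotch3R169C mice at 12 months. Both groups aged 12 months lay within the range of the mice aged 3 months.

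F2rl2 and F2rl3 were scarce, with medians of 12 and 10.5 reads per library, though each had at least 2 reads in every library. F2rl2 averaged 0.342 ± 0.170 in Notch3+/+, 0.269 ± 0.132 in Notch3-/-, 0.441 ± 0.139 in WT and 0.495 ± 0.342 in TgNotch3R169C mice (SD, n = 8 each), and the 4 groups overlapped. F2rl3 had medians of 0.275, 0.268, 0.647 and 0.393 in the same order. Its highest value in each group other than Notch3+/+ came from a library rich in choroid plexus markers.

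Thbd was lowest, median and highest at 855, 1017 and 1258 in Notch3+/+ mice and at 834, 1025 and 1141 in Notch3-/- mice. The values were 705, 787 and 973 in WT and 672, 860 and 1041 in TgNotch3R169C mice. Both older groups thus sat lower than both younger groups, with overlap. Procr varied least over the 32 libraries, with a coefficient of variation of 14.1%, at 14.4 ± 1.19, 15.2 ± 1.5, 13.7 ± 2.07 and 13.3 ± 2.71 in Notch3+/+, Notch3-/-, WT and TgNotch3R169C mice (SD, n = 8 each).

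**Figure D1:**
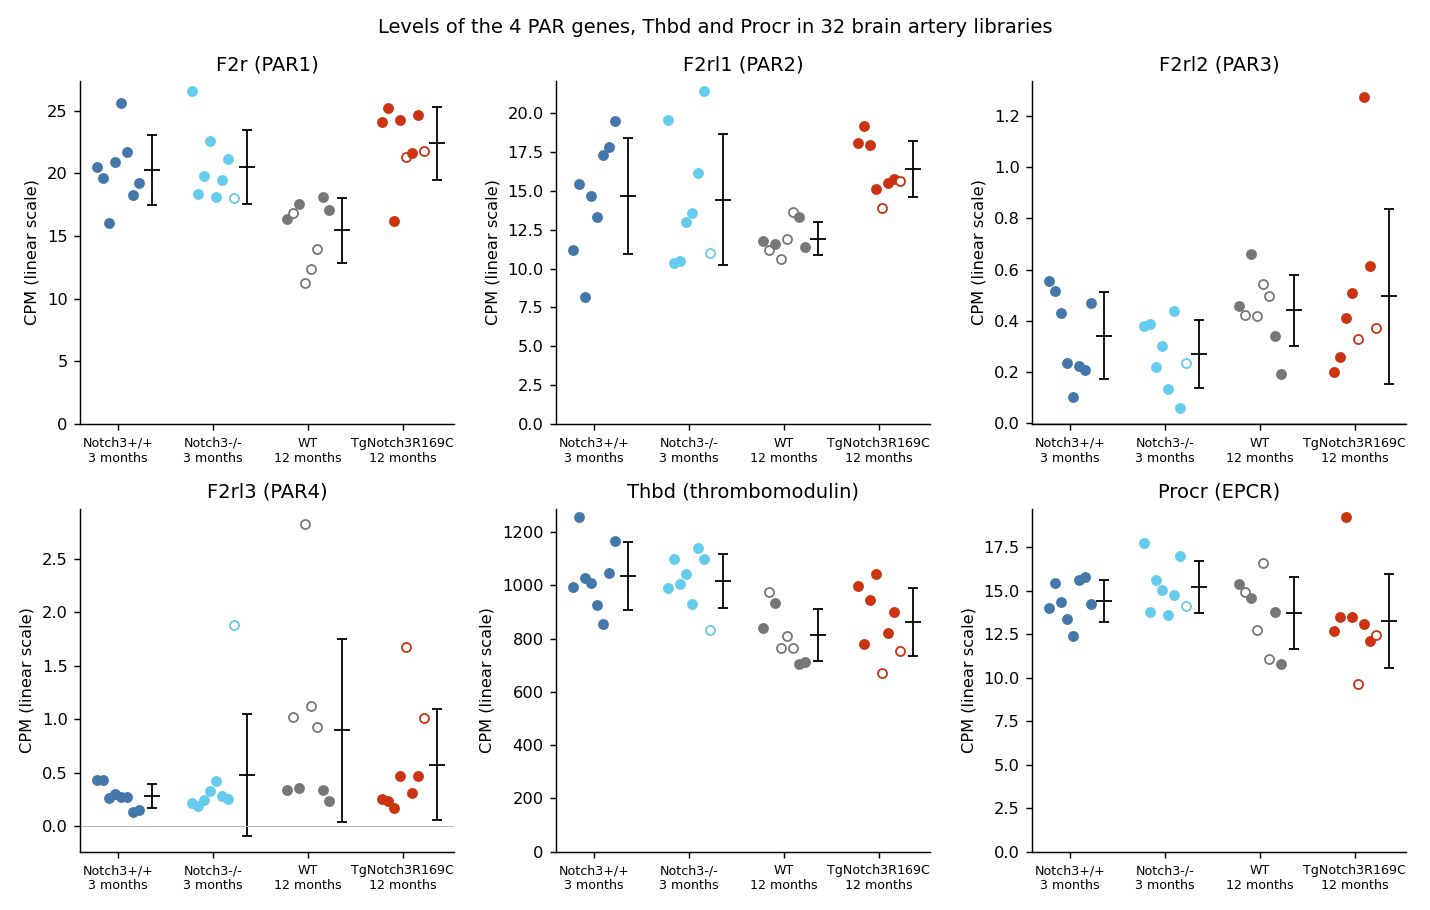
Level in CPM (linear axis from 0 or just below it) of each gene in each of 32 libraries, by group; open circles are the 7 libraries rich in choroid plexus markers, and black bars are the mean ± SD of 8 libraries. F2rl1 in TgNotch3R169C mice (13.9 to 19.1) lies above F2rl1 in WT mice (10.6 to 13.7), and the 7 open circles hold the highest values of F2rl3.

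No difference in the PARs, thrombomodulin or EPCR was detected between Notch3-/- and Notch3+/+ mice at 3 months. Of the 5 genes with enough counts for the test, 0 were called by edgeR's quasi-likelihood test at an adjusted p below 0.05, against 0.649% of the 17714 genes tested. At an unadjusted p below 0.05 the count was also 0, and DESeq2 and limma voom called 0 of them. No member had groups that did not overlap, as 0.322% of all genes did.

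Among the receptors, F2r differed by 0.020 on the log2 scale (SE 0.0935, edgeR adjusted p = 0.992), and its 95% CI as a fold ran from 0.884 to 1.16. F2rl1 differed by -0.020 (SE 0.186, edgeR adjusted p = 0.997). Its interval was wider, from 0.751 to 1.29 fold. F2rl2 differed by -0.36 (SE 0.370, edgeR adjusted p = 0.921), and its few reads left an interval from 0.452 to 1.34 fold. F2rl3 did not pass the count filter in this comparison, and without the 1 Notch3-/- library rich in choroid plexus markers its mean was 0.279 ± 0.0783 CPM (SD, n = 7) in Notch3-/- and 0.285 ± 0.109 (n = 8) in Notch3+/+ mice.

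The 2 genes of the protein C pathway were similar. Thbd differed by -0.023 (SE 0.0802, edgeR adjusted p = 0.985; 0.875 to 1.11 fold), and Procr by 0.078 (SE 0.0681, edgeR adjusted p = 0.890; 0.956 to 1.17 fold). In the same comparison smooth muscle markers were lower (6 of 8 called, median log2 fold change -0.63), and 0 of 8 endothelial markers were called (median 0.090). In whole arteries, fewer cells of a type and less RNA per cell cannot be told apart.

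In TgNotch3R169C mice F2rl1 averaged 16.4 ± 1.79 CPM against 11.9 ± 1.05 in WT mice (SD, n = 8 each). Every TgNotch3R169C library was above every WT library, although the gap was narrow: the lowest TgNotch3R169C value was 13.9 and the highest WT value 13.7. The log2 fold change was 0.46 (SE 0.0756), or 1.38 fold, with a 95% CI from 1.23 to 1.54 fold. This is the contrast by which the family was chosen, and the size is given as a description. Leaving out 1 library at a time gave log2 fold changes from 0.42 to 0.50.

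F2r, the neighbor of F2rl1 on the chromosome, was higher by a similar amount. It averaged 22.4 ± 2.92 CPM in TgNotch3R169C and 15.5 ± 2.57 in WT mice (SD, n = 8 each). The log2 fold change was 0.54 (SE 0.109), with a 95% CI from 1.24 to 1.70 fold, and 7 of 8 TgNotch3R169C libraries were above every WT library. The remaining library, replicate 3, stood at 16.2 CPM.

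The other members had smaller or less certain differences. F2rl2 differed by 0.16 on the log2 scale (SE 0.335), which became -0.22 without replicate 6 of TgNotch3R169C. F2rl3 differed by -0.72 (SE 0.542), which was -0.019 (SE 0.323) without the 6 libraries of these groups rich in choroid plexus markers and -1.60 (SE 0.455) with the smooth muscle markers as a covariate. Thbd differed by 0.088 (SE 0.0967) and Procr by -0.048 (SE 0.123), with intervals from 0.922 to 1.22 fold and from 0.807 to 1.16 fold. Without the same 6 libraries Thbd differed by 0.20 (SE 0.106), Procr by 0.038 (SE 0.143) and F2rl2 by 0.36 (SE 0.524). With the endothelial markers as a covariate Procr differed by -0.23 (SE 0.0958), and with the smooth muscle markers by 0.15 (SE 0.102).

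In this comparison 1 of the 6 genes, F2rl1, was called by edgeR, where 0.113% of 17731 genes were, and 1, F2rl1 again, had groups that did not overlap, where 0.141% did. Since the contrast chose the family, nothing is read from these counts. Without the libraries rich in choroid plexus markers (6 TgNotch3R169C and 4 WT left), F2rl1 differed by 0.50 on the log2 scale (SE 0.0878). Its lowest TgNotch3R169C library stood at 15.1 CPM and its highest WT library at 13.3. The share of all genes without overlap was not counted for these fewer libraries, so nothing is read from this gap. F2r without the rich libraries differed by 0.39 (SE 0.113), with 5 of 6 TgNotch3R169C libraries above every WT library. In that fit edgeR called 2 of 18097 genes, and 0 of the 6.

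Marker genes of several cell types differed in direction beside these 2 genes, and none of those below was called by edgeR. All 8 endothelial markers were higher in TgNotch3R169C mice (median log2 fold change 0.10; 0 called by edgeR, 1 at an unadjusted p below 0.05), and their sum ran from 1148 to 1662 CPM in TgNotch3R169C and from 1067 to 1443 CPM in WT mice. With the mean of these markers as a covariate, the log2 fold change was 0.38 (SE 0.0715) for F2rl1 and 0.49 (SE 0.117) for F2r. All 8 smooth muscle markers were lower (median -0.23; 0 called by edgeR, 3 at an unadjusted p below 0.05), summing to between 1134 and 1762 CPM against 1354 to 2109. The 3 neutrophil markers tested were lower (median -1.05, 3 at an unadjusted p below 0.05), and the 6 neuron and 6 astrocyte markers were higher (medians 0.40 and 0.18, 0 and 1 at an unadjusted p below 0.05). With the smooth muscle markers as a covariate, the values were 0.55 (SE 0.0774) for F2rl1 and 0.55 (SE 0.135) for F2r. The part of either cell type in the differences was not tested beyond these fits, and that of the others was not tested.

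**Figure D2:**
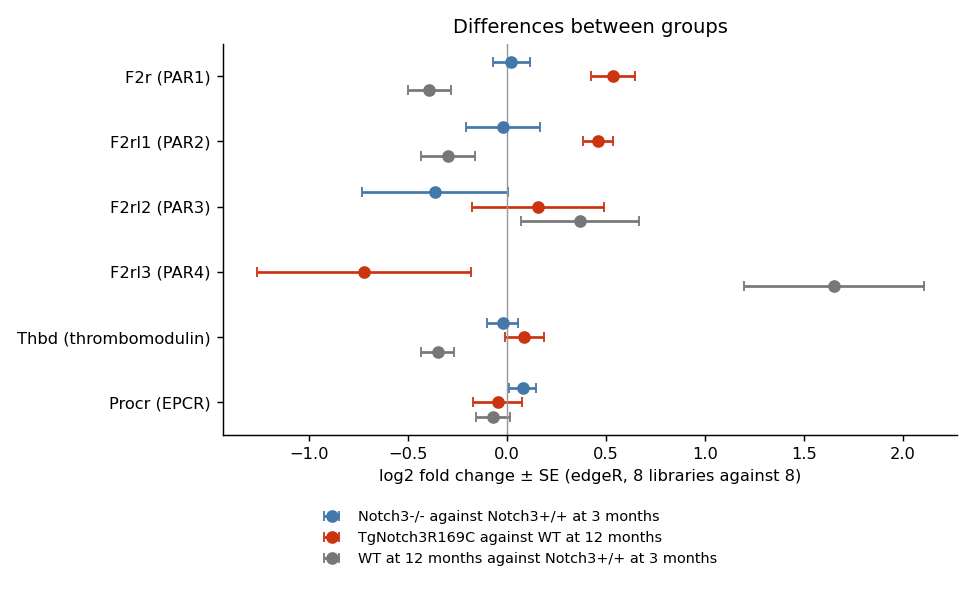
Log2 fold change ± SE of each gene from edgeR fits of 8 libraries against 8, for Notch3-/- against Notch3+/+ mice (blue), TgNotch3R169C against WT mice (red) and the 2 control groups (gray). F2r and F2rl1 are at 0.54 and 0.46 in red and at 0.020 and -0.020 in blue, and F2rl3 has no blue point because it did not pass the count filter.

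The 2 control groups were compared to place the levels at 12 months. They differ in age and also in mouse line, and these cannot be told apart. WT mice aged 12 months also entered the contrast that chose F2rl1, and each control group is shared with 1 of the 2 comparisons above. Of the 6 genes, 3 were called by edgeR, where 8.00% of 17643 genes were. None had groups that did not overlap, where 1.24% of genes did.

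Thrombomodulin RNA was lower in the older controls. Thbd fell from 1035 ± 128 CPM in Notch3+/+ mice aged 3 months to 812 ± 98.3 in WT mice aged 12 months (SD, n = 8 each), a log2 fold change of -0.35 (SE 0.0839, edgeR adjusted p = 0.0184). In 6 of 8 WT libraries Thbd was below every library of the younger mice. Without the 4 libraries rich in choroid plexus markers the log2 fold change was -0.38 (SE 0.108), and the edgeR adjusted p was 0.0854 with 4 WT mice. The other gene of the pathway, Procr, differed by -0.072 (SE 0.0871, edgeR adjusted p = 0.665).

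F2r was lower by 0.39 on the log2 scale (log2 fold change -0.39, SE 0.109, edgeR adjusted p = 0.0362). That call was lost in 8 of 16 fits that left out 1 library, and without the 4 libraries rich in choroid plexus markers the value was -0.23 (SE 0.101, edgeR adjusted p = 0.223). F2rl1 had a log2 fold change of -0.30 (SE 0.137), given as a description. F2rl2 differed by 0.37 (SE 0.298, edgeR adjusted p = 0.488).

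F2rl3 was higher in the older controls (log2 fold change 1.65, SE 0.456, edgeR adjusted p = 0.0347), and the 4 highest of the 8 WT values came from the libraries rich in choroid plexus markers. Without them the log2 fold change was 0.16 (SE 0.316, edgeR adjusted p = 0.821), at 0.321 ± 0.0546 CPM (SD, n = 4) against 0.285 ± 0.109 (n = 8). Over all 32 libraries F2rl3 ran from 0.931 to 2.82 CPM in the 7 rich ones and from 0.138 to 0.473 in the other 25, with no overlap. The call was also lost in 9 of 16 fits that left out 1 library. In the same comparison 5 of 7 choroid plexus markers were called higher (median log2 fold change 3.96), 8 of 8 smooth muscle markers lower (median -0.81) and 1 of 8 endothelial markers, Pecam1, lower (median -0.16). The 5 oligodendrocyte markers were also higher (2 called, 5 at an unadjusted p below 0.05, median 0.76). With the smooth muscle markers as a covariate edgeR called 0 of all 17643 genes, so its count for the members says nothing about them, and the log2 fold changes were -0.53 (SE 0.162) for Thbd, -0.22 (SE 0.225) for F2r and 0.32 (SE 0.874) for F2rl3. The part of the mixture of cells in the 3 calls was not tested beyond these fits.

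**Figure D3:**
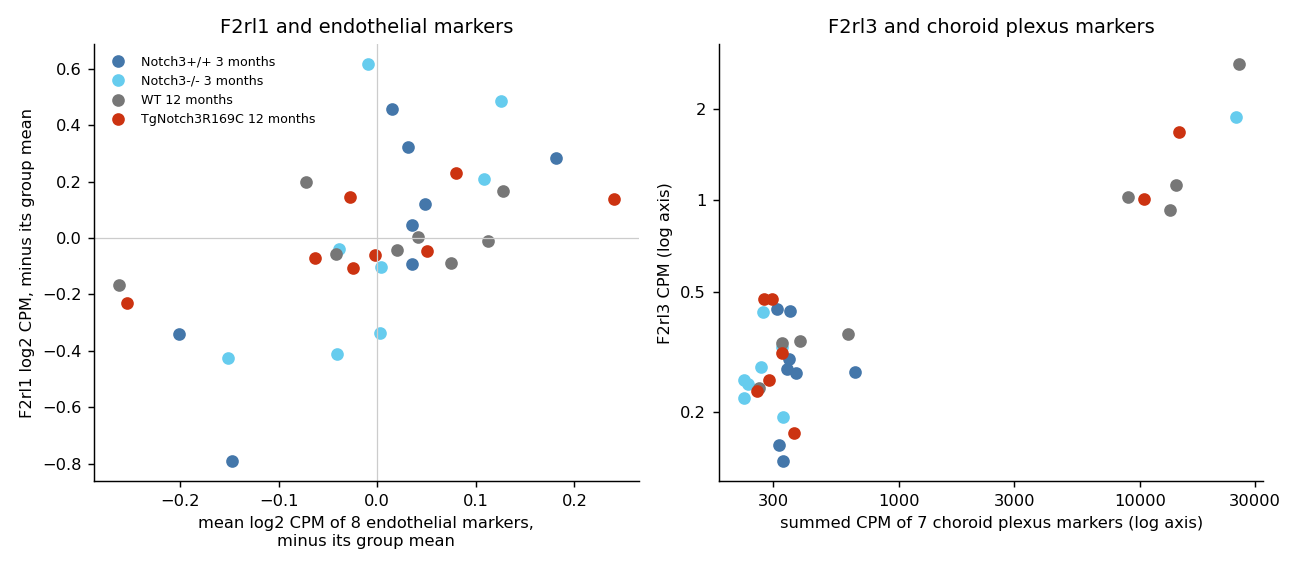
Left, F2rl1 log2 CPM against the mean log2 CPM of 8 endothelial markers, each minus its group mean. Right, F2rl3 CPM against the summed CPM of 7 choroid plexus markers, both on log axes; each point is 1 of 32 libraries, colored by group, and the 7 libraries with F2rl3 from 0.931 to 2.82 CPM are those with 8884 CPM or more of the markers.

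The libraries also showed which genes vary with each member from mouse to mouse. After the group means were subtracted, Pearson's r of log2 CPM was taken over 32 libraries with each of 15537 other genes, as a description, because the libraries share depth and tissue mixture. The genes nearest to F2rl1 were Notch4 (r = 0.86), Sema3g (0.85), Ehd4 (0.84), Rasip1 (0.83) and Icam2 (0.82). Notch4 is an endothelial Notch receptor, Rasip1 an endothelial regulator of vessel lumen formation and Icam2 an endothelial adhesion molecule. F2rl1 itself had r = 0.56 with the 8 endothelial markers, 0.46 with border macrophage, 0.42 with fibroblast, 0.33 with smooth muscle, -0.27 with choroid plexus and -0.39 with neuron markers. The coefficient of variation of F2rl1 was 25.3% and 29.2% in Notch3+/+ and Notch3-/- mice and 8.83% and 10.9% in WT and TgNotch3R169C mice. The libraries of mice aged 3 months therefore weigh most in the r values of F2rl1, which were not taken within single groups.

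F2r was nearest to Zcchc14 (r = 0.72), Dll4 (0.70), Zswim6 (0.68), Pcdhb17 (0.67) and Bgn (0.67), of which Dll4 is an endothelial Notch ligand and Bgn the matrix proteoglycan biglycan. The r of F2r was -0.40 with choroid plexus, -0.32 with oligodendrocyte, 0.32 with endothelial and 0.26 with smooth muscle markers, and 0.31 with F2rl1. Thbd was nearest to Ndrg1 (r = 0.85), Rapgef5 (0.84), Calhm2 (0.80), Rhou (0.77) and Afap1 (0.75), and its r was 0.48 with fibroblast, 0.46 with mast cell and 0.20 with endothelial markers. Procr was nearest to Ecscr (r = 0.82), Tgm2 (0.81), Cavin1 (0.80), Slc52a3 (0.80) and Msn (0.79), and had r = 0.63 with endothelial, 0.62 with red cell, 0.55 with fibroblast and 0.54 with border macrophage markers. Ecscr encodes an endothelial surface protein, Tgm2 a transglutaminase and Cavin1 a coat protein of caveolae. Thbd and Procr had r = 0.46 with each other. F2rl3, at 0.559 CPM on average, had r = 0.90 with the choroid plexus markers and -0.48 with the endothelial markers.

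The other genes of the system were counted in 5 lists of 119 genes in all. Of 36 proteases listed as known or possible activators of PARs, 15 averaged at least 1 CPM. The most abundant were Ctss (173.6 ± 27.9 CPM, SD over 32 libraries), the cysteine protease cathepsin S, and Furin (123.5 ± 6.97), a proprotein convertase. RNA for the circulating proteases was scarce: thrombin's own gene F2 averaged 0.0843 CPM, with no reads in 4 of 32 libraries, and Proc, the gene of protein C, had 8 reads in all. These plasma proteins are made mainly in the liver. Of the inhibitors, Serpind1 (heparin cofactor II) stood at 261.1 ± 34.8 and Serpine2 (protease nexin 1) at 232.4 ± 27.2 CPM, whereas Serpinc1 (antithrombin) averaged 0.293 CPM and Serpina5 (protein C inhibitor) had 1 read in all. Vwf, the von Willebrand factor of endothelium, stood at 924.8 ± 192.1 and Anxa2, a surface receptor for plasminogen activation, at 413.5 ± 45.6 CPM. All 28 genes of G protein coupling and beta-arrestin averaged at least 1 CPM, led by Gnai2, an inhibitory G protein subunit (476.5 ± 27.6), and Arhgef12 (359.9 ± 28.2). The response genes were led by Ccn2 (708.7 ± 192.5) and Akap12 (493.4 ± 51.4).

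In Notch3-/- mice 0 of the 94 pathway genes tested were called by edgeR, with 13 at an unadjusted p below 0.05 (1363 of all 17714 genes), and 0 were called by DESeq2 or limma voom. Their median log2 fold change was -0.016, where that of all genes was -0.0011. In TgNotch3R169C mice 0 of 91 were called by edgeR, with 18 at an unadjusted p below 0.05 (1290 of all 17731 genes), and again 0 by DESeq2 or limma voom. Of these 91 genes 64 were higher and 27 lower, where 8342 of all genes were higher and 9389 lower, with a median of 0.089 against -0.0074 over all genes. By list, the median was 0.21 in the 23 response genes, 0.17 in the 11 genes of tissue factor and fibrinolysis, 0.11 in the 17 proteases, 0.091 in the 12 inhibitors and protein C genes and 0.016 in the 28 coupling genes. The lists were chosen with earlier results of these data known, and no set test was run. These directions and medians are a description, and nothing is read from them. The medians were not taken without the libraries rich in choroid plexus markers or with a covariate. Of the 2 most abundant genes in each list, Serpind1 had a log2 fold change of -0.24 (SE 0.0746), Serpine2 one of 0.19 (SE 0.0770) and Vwf one of 0.18 (SE 0.134). The other 7 ran from -0.060 (Furin) to 0.094 (Ccn2). The 4 mast cell markers tested, which include the tryptase Tpsb2, an activator of PAR2, were all higher (median 0.64; 0 called by edgeR, 4 at an unadjusted p below 0.05). The mast cell markers Cma1, Mcpt4 and Tpsb2 are also in the protease list, so these are not separate counts. The 5 markers summed to between 10.7 and 33.9 CPM (median 14.6) in TgNotch3R169C and between 8.65 and 14.8 CPM (median 11.3) in WT mice. The neutrophil markers, from cells that also make PAR-cutting enzymes, lay the other way, as given above.

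Between the control groups 19 of 92 pathway genes were called by edgeR, 3 higher and 16 lower in the older mice, where 705 of all genes were higher and 707 lower. The 8 of largest change were F5, Klk6, Ccn1, Gzma, Thbs1, Rgs4, Mmp2 and Hpn. F5, coagulation factor V, stood at 149.9 ± 174.6 CPM in WT mice aged 12 months and 13.4 ± 3.35 in Notch3+/+ mice (SD, n = 8 each; log2 fold change 3.47, SE 0.691). F5 ran from 159.6 to 512.9 CPM in the 7 libraries rich in choroid plexus markers and from 8.69 to 28.1 in the other 25, and without the rich libraries WT mice averaged 19.2 ± 1.09 (SD, n = 4). Klk6, a kallikrein protease that cuts PARs, was higher by 1.20 (SE 0.278), and Hpn, the protease hepsin, by 0.52 (SE 0.155). Ccn1, a matrix protein gene induced by thrombin, was lower (log2 fold change -1.12, SE 0.280), as were Gzma (granzyme A; -1.02, SE 0.236) and Thbs1 (thrombospondin 1; -0.59, SE 0.127). Rgs4, which quenches G protein signals, had -0.55 (SE 0.125), and the matrix protease Mmp2 had -0.53 (SE 0.0693). The edgeR adjusted p of these 8 ran from 0.000477 for Mmp2 to 0.0484 for Hpn. Without the 4 WT libraries rich in choroid plexus markers 3 of the pathway genes were called, in a fit that called 402 of 18086 genes. As given above, choroid plexus and oligodendrocyte markers were higher in the older mice and smooth muscle markers lower. The part of the mixture of cells in the 19 calls, that of Klk6 included, was not tested beyond the fits given here.

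**Figure D4:**
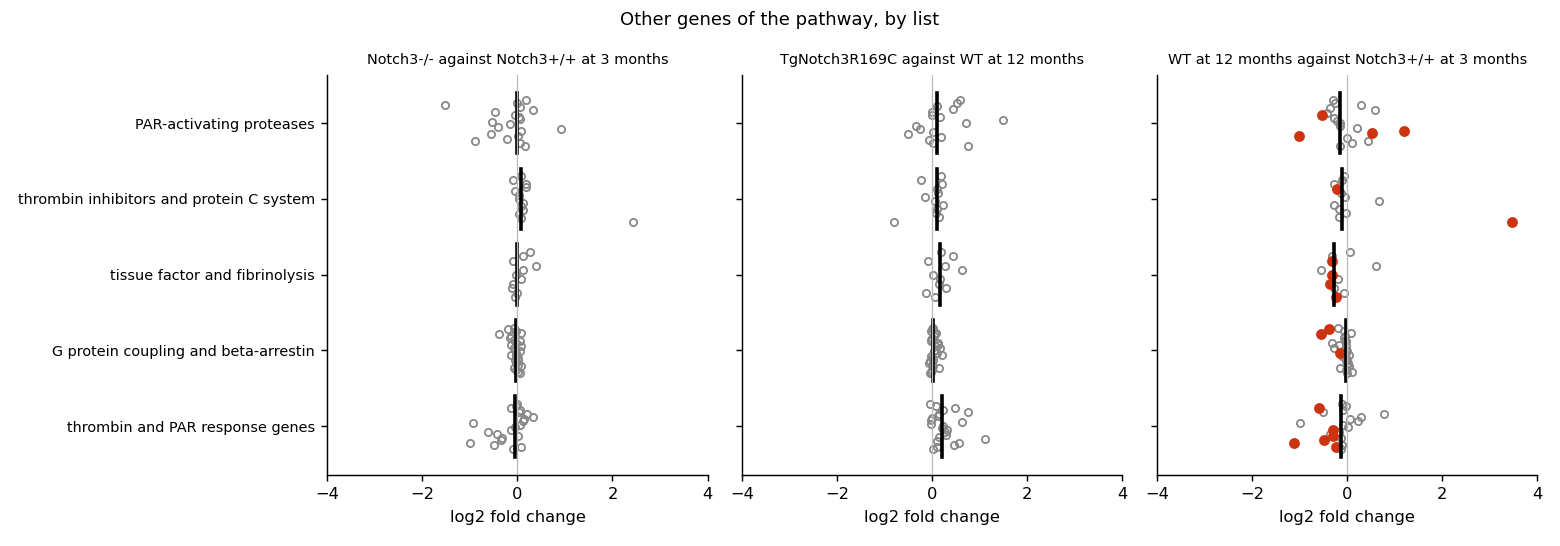
Log2 fold change of the other pathway genes that passed the count filter, by list, in the 3 comparisons; filled red points are genes with an edgeR adjusted p below 0.05, open points are the rest, and black bars are list medians. Red points appear in the comparison of the 2 control groups, 19 of 92 genes, and in neither mutant comparison.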

How the data were processed

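Brain arteries were dissected, and stranded poly(A) libraries were sequenced, 1 for each of 32 mice. The deposited table holds unnormalized read counts by Ensembl gene, as made by the authors. The submitters' processing notes name bcl2fastq 2.20.0.422, cutadapt 1.10, Bowtie2 2.2.8, STAR 2.5.3a, HTSeq 0.6.1p1 and mm39; the annotation and strand setting are not given in the sources used here. All 32 columns were matched to a library by its label. Of 55357 genes, 16744 had no counts and 52081 received a symbol.

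Counts were tested in R 4.3.3 with edgeR 4.0.16 (filterByExpr, TMM, glmQLFit, glmQLFTest) in fits of the 2 groups compared, with Benjamini-Hochberg adjustment over all genes tested and a threshold of 0.05. The study used DESeq2; here DESeq2 1.42.0 and limma 3.58.1 were alternatives. CPM used TMM factors over 32 libraries, and log2 CPM a prior count of 2. CPM was divided by union exon length in GENCODE vM21 where genes are compared. The fits were tested on simulated data. No replicate was a duplicate: the chi-square between 2 libraries of a group was at least 10.9 per gene.

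The members and lists were chosen with earlier results of these data known. Genes named are the 6 members, Notch3, the 2 most abundant genes of each pathway list, pathway genes called (at most 8 per comparison), the 5 genes nearest to each member averaging at least 1 CPM, and markers. F2, Proc, Serpinc1 and Serpina5 were named after their values were seen. Each p-value sets a difference between groups against the variation between libraries, 1 per mouse, without pairing by replicate number.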

Additional observations from a re-analysis of the deposited data

Results flagged for a closer look

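Each member was examined in each group of 8 libraries for a single library far from the others (Dixon's test at the 95% level). Of 24 groups examined 5 stood out, where chance gives about 1.2.

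F2r had its lowest TgNotch3R169C library, replicate 3, at 16.2 CPM, with the next at 21.3 (ratio of gap to range 0.566). The same mouse held the highest Procr of its group, at 19.2 CPM with the next at 13.5 (0.596). F2rl2 was highest in replicate 6 of TgNotch3R169C, at 1.28 CPM with the next at 0.613 (0.616). F2rl3 was highest in replicate 8 of Notch3-/-, at 1.88 CPM with the next at 0.428 (0.861), and in replicate 4 of WT mice aged 12 months, at 2.82 CPM with the next at 1.12 (0.658). These last 2 libraries are among the 7 rich in choroid plexus markers, and the libraries of the other 3 values are not.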

How the results depend on the processing

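In Notch3-/- mice 0 members and 0 pathway genes were called under every alternative. Log2 fold changes near 0 changed sign there: F2r to -0.041 with the endothelium covariate, F2rl1 to 0.19 with the smooth muscle covariate and 0.030 without the libraries rich in choroid plexus markers (an alternative chosen after seeing the data), and Thbd to 0.020 without those. Values also moved without a change of sign. F2r was at 0.245 (SE 0.133) with the smooth muscle covariate, in a fit where edgeR called 16 of all genes against 115 in the main fit. F2rl1 was at -0.19 (SE 0.153) with the endothelium covariate. With 1 library left out, F2r ranged from -0.032 to 0.081, F2rl1 from -0.12 to 0.056 and Thbd from -0.053 to 0.029.

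In TgNotch3R169C mice the 1 member called became 2 with DESeq2 (F2r joined) and 0 with the endothelium or choroid plexus covariate or without the rich libraries (18, 15 and 2 of all genes called); with all 4 groups in 1 fit, F2r was called in place of F2rl1. With 1 library left out it ranged from 0 to 2, at 0 without TgNotch3R169C replicate 1 or WT replicate 2, 3 or 4, where the log2 fold change of F2rl1 was 0.44, 0.44, 0.45 and 0.44, and at 2 without TgNotch3R169C replicate 3. Over the other settings the log2 fold change ran from 0.38 to 0.55 for F2rl1 and from 0.39 to 0.57 for F2r. This contrast chose the family, so nothing is read from whether or how often a member was called.

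Between the control groups the 3 members and 19 pathway genes called became 0 and 1 with the endothelium covariate, 0 and 0 with the smooth muscle covariate, 0 and 1 with the choroid plexus covariate, and 0 and 3 without the rich libraries. Over all genes the calls fell from 1412 to 226, 0, 296 and 402 in these fits, and the log2 fold change of Thbd was -0.34, -0.53, -0.35 and -0.38. With 1 library left out they ranged from 1 to 4 and from 14 to 19. Thbd was called in 16 of 16 such fits. F2r was lost in 8 (without Notch3+/+ replicates 1, 2, 4, 5 and 6 or WT replicates 4, 5 and 6; edgeR adjusted p from 0.0503 to 0.0664), and F2rl3 in 9 (without Notch3+/+ replicates 4 to 8 or WT replicates 2, 4, 5 and 6; 0.0538 to 0.0708). The sign changed for F2rl3 (-0.027) with the choroid plexus covariate, for F2rl2 (-0.27) with the smooth muscle covariate, and for Procr with the endothelium (0.019) and smooth muscle (0.085) covariates. The causes were not tested.

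Replicate numbers were not taken to pair the libraries: the correlation of same-numbered deviations was above 0.1 in 4, 5 and 3 of 8 pairs (median 0.12, 0.12 and 0.014, against -0.037, -0.021 and -0.021 between other numbers), and 6, 2 and 3 of 16 libraries correlated best with their own number. With a replicate block, members called were 0, 0 and 1 and pathway genes 0, 0 and 10 in the 3 comparisons.

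Over all genes, DESeq2 called 278, 80 and 2262 genes in the 3 comparisons, where edgeR called 115, 20 and 1412, and edgeR with the replicate block called 97, 6 and 736. F2rl2 and F2rl3 are limited by depth, with medians of 12 and 10.5 reads per library.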
